A study of Mus musculus with 9 samples.

Results

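The polysomal RNA of MP cells was compared with that of LSK cells across all genes that passed a filter on low counts. Both populations are primary hematopoietic cells of C57BL/6 mice with no genetic change named in the labels. The labels call MP cells progenitor cells, without spelling the abbreviation out, and call LSK cells stem cells. LSK is the usual name for marrow cells that lack lineage markers and carry Sca-1 and Kit. The comparison used 3 MP polysomal libraries and 2 LSK polysomal libraries, 5 of the 9 in the series, and the 2 MP total and 2 LSK total libraries entered the same model to share an estimate of the spread. All cells were held with 100 ug/ml cycloheximide for 10 min before lysis, polysomal RNA was fraction 7 of 10 from a 10 to 60% sucrose gradient, and total RNA was kept from the lysate. Of 47480 gene names in the table, 16426 were tested. Nothing in the labels ties a library to an animal, a pool or a sort, so the p-values measure how far these libraries spread, and part of that may be technical.

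Ribosomes that read one message at the same time form a polysome, and heavy polysomes sediment deep in a sucrose gradient. Cycloheximide stops elongation and keeps the ribosomes in place, so the RNA of a heavy fraction is enriched for messages under translation. In mouse marrow, stem and multipotent cells share a set of surface proteins and transcription factors with the early lymphoid branch, while committed myeloid and erythroid progenitors begin to make granule enzymes, red cell membrane proteins and the iron uptake machinery.

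Total counts were 32596449, 34352861 and 34807735 in the MP polysomal libraries and 28802289 and 27342343 in the LSK polysomal libraries. The share of the most abundant message, Mpo, was 3.13%, 2.76% and 2.66% in MP and 0.727% and 0.864% in LSK. Pearson correlations of log2 CPM were 0.9325 to 0.9747 within MP, 0.8854 between the 2 LSK libraries and 0.8284 to 0.9382 between populations, so LSK polysomal 1 and 2 resembled each other less than some pairs across populations. On the first principal component, which held 54.7% of the variance, MP polysomal 1, 2 and 3 lay at -100.7, -66.1 and -14.1, LSK polysomal 1 at 4.48 and LSK polysomal 2 at 176.4. LSK polysomal 2 stood apart from all others on this component. On the second, with 31.3% of the variance, LSK polysomal 1 lay at 116.9, LSK polysomal 2 at -7.80 and MP polysomal 1, 2 and 3 at 23.9, -26.6 and -106.3. Of the 551 genes called below, 158 moved by over 1.5-fold without LSK polysomal 1 and 184 without LSK polysomal 2. Values without 1 library are given below beside the results it moved most. The libraries of a group also differed by the GC content of the transcripts. Spearman's correlation of transcript GC content with the log2 difference was taken over 8735 genes that averaged 10 CPM or more. It was 0.336 for MP polysomal 3 minus MP polysomal 1 and 0.421 for MP polysomal 2 minus MP polysomal 1. It was 0.613 for LSK polysomal 2 minus LSK polysomal 1 and -0.317 for the fitted change of MP over LSK. The differences MP polysomal 3 minus 1 and LSK polysomal 2 minus 1 correlated with each other at 0.643 over the same genes. These correlations are across genes, which share the libraries, and are given as a description.

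**Figure D1:**
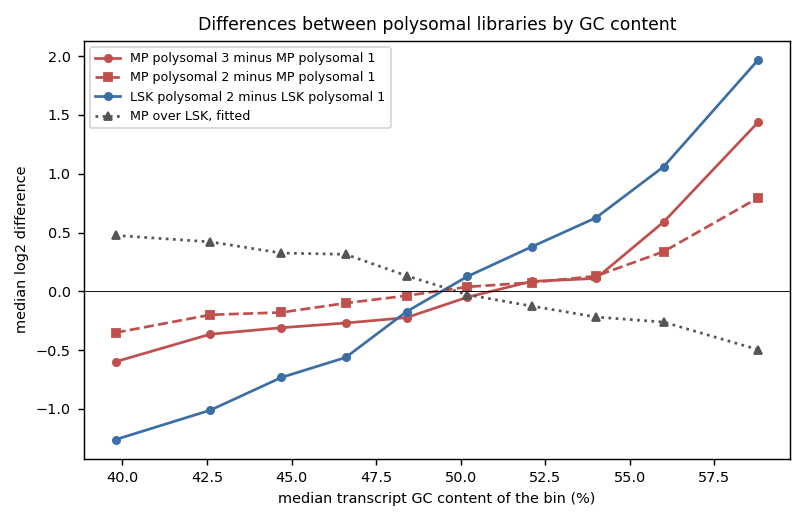
Median log2 difference (y axis) in 10 bins of genes ordered by transcript GC content (x axis, in percent) between polysomal libraries of 1 group, and for the fitted change of MP over LSK. In the bin with the highest GC content the median was 1.44 for MP polysomal 3 minus 1 and 1.97 for LSK polysomal 2 minus 1, in the lowest it was -0.598 and -1.26, and the change of MP over LSK ran the other way, with -0.496 in the highest and 0.476 in the lowest bin.

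In polysomal RNA, 86 genes were higher and 465 were lower in MP than in LSK at an adjusted p below 0.05 (edgeR's quasi-likelihood test with Benjamini-Hochberg adjustment). These are 0.524% and 2.83% of the genes tested, and 3.35% were called in either direction. Levels did not overlap between the populations for 15% of all tested genes with MP higher and 17.4% with MP lower, and all called genes were among them. The median log2 change over all tested genes was -0.03, and it was -0.135 when libraries were scaled by their totals alone. The median log2 change was 3.57 among the called genes that were higher in MP and -4.30 among those that were lower. Protein-coding genes made up 79 of the 86 and 407 of the 465, against 12803 of the 16426 genes tested. Of 115 tested immunoglobulin gene segments, 22 were lower in MP, against 2.83% of all tested genes, and 0 were higher. Of the called genes, 35 had 0 counts in all 3 MP libraries and 10 had 0 counts in both LSK libraries. The calls rest on few libraries. No gene was called without MP polysomal 1 or without MP polysomal 2, where 2442 and 2166 genes had an unadjusted p below 0.05, and 25 were called without MP polysomal 3. Without LSK polysomal 1, 145 genes were higher and 371 lower, and without LSK polysomal 2, 6 were higher and 197 lower. All 551 called genes kept their direction in each of these 5 fits. Their levels did not overlap between the populations, which all but fixes this outcome, so it is no further support.

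**Figure D2:**
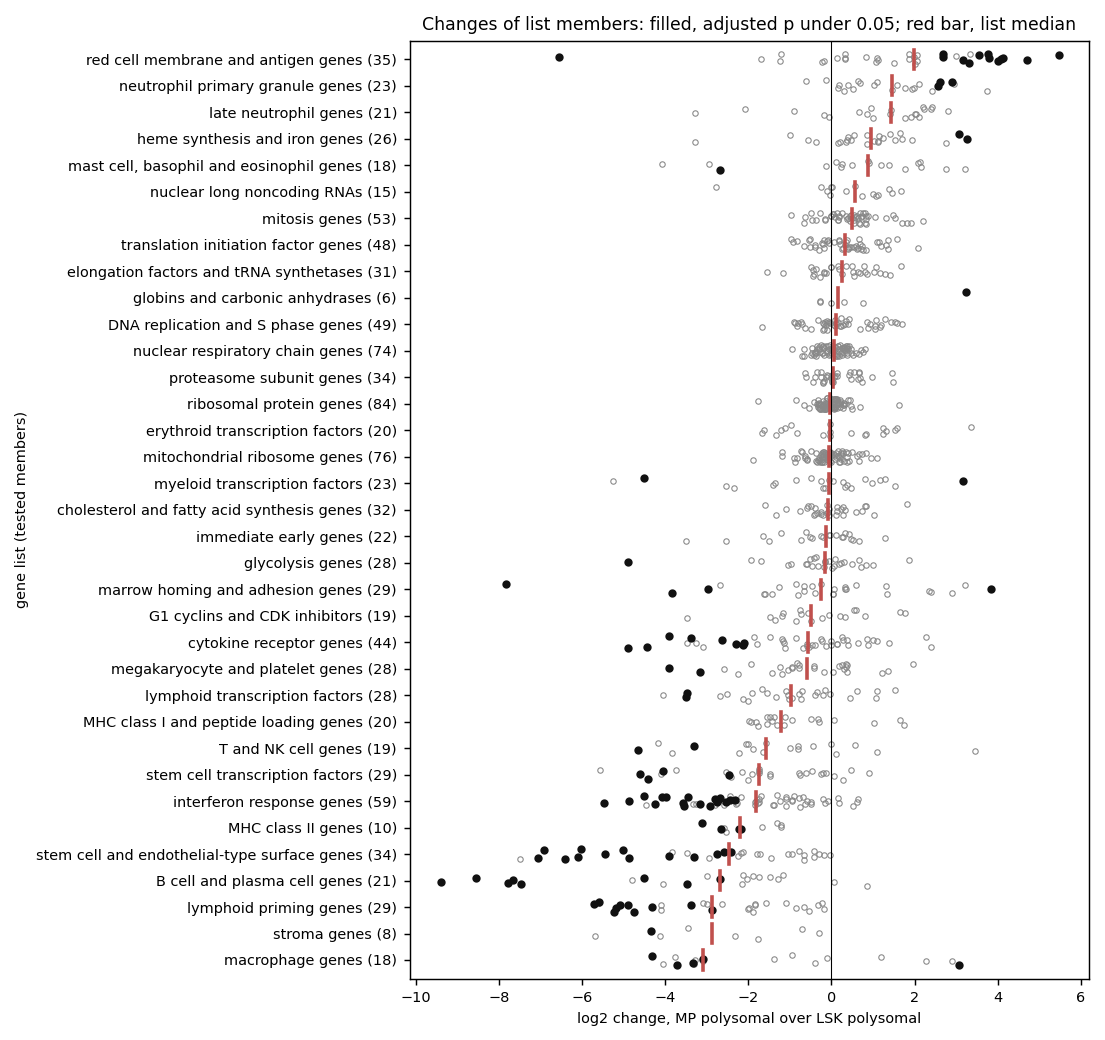
Log2 change of MP polysomal over LSK polysomal (x axis) of the tested members of 35 gene lists (y axis, with the number tested), each point a gene, filled where the adjusted p was below 0.05, with a red bar at the list's median. The medians run from -3.09 for macrophage genes to 2.00 for red cell membrane genes, and the ribosomal protein genes have quartiles of -0.21 and 0.13 and a full range of -1.76 to 1.62.

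The surface genes of stem cells, a list that also holds genes named for endothelium, were lower in MP polysomal RNA. Of 36 listed genes, 34 were tested, 13 were lower at an adjusted p below 0.05, against 2.83% of all tested genes, and 0 were higher, all 34 had a negative change, and the median log2 change was -2.47. In this bulk RNA, fewer cells of a type and less RNA per cell cannot be told apart. Ly6a, which encodes Sca-1 and so belongs to the gate that gives LSK cells their name, had 1.26, 0.595 and 0.159 CPM in MP and 72.1 and 110 CPM in LSK. Here and below CPM are counts scaled to a common library size with TMM factors. Its levels match the labels and are no finding, with a log2 change of -7.07 (-7.90 to -6.61 over the 5 fits that leave out 1 library). Kit, the other gene in the name of the gate, had 1290, 1257 and 913 CPM in MP and 1595 and 508 CPM in LSK, and its levels overlapped. Esam, an adhesion molecule of endothelium and stem cells at chr9:37528078-37538319 on the plus strand, had 5.23, 4.06 and 8.10 CPM in MP and 178 and 162 CPM in LSK. The LSK libraries were close to each other and every MP library lay far below both, with a log2 change of -4.87 (SE 0.54, adjusted p = 0.00696). Jam3, a junctional adhesion molecule, had 0.307, 0.297 and 0.159 CPM in MP and 9.63 and 6.98 CPM in LSK (log2 change -5.01, SE 0.59, adjusted p = 0.00743). Its libraries showed no overlap either. Emcn, the sialomucin endomucin, had 0.581, 0.132 and 0.255 CPM in MP and 17.1 and 11.4 CPM in LSK. Fgd5, an exchange factor of small GTPases used to mark stem cells, had 0.102, 0.165 and 0 CPM in MP and 11 and 11.3 CPM in LSK. Emcn had a log2 change of -5.45 (adjusted p = 0.0101), and of -6.19 without MP polysomal 1. Fgd5 had a log2 change of -6.91 (adjusted p = 0.0112), and of -7.68 without MP polysomal 2. Adgrg1, an adhesion G protein-coupled receptor, stood nearer the threshold, with 675, 971 and 752 CPM in MP and 2694 and 5918 CPM in LSK (log2 change -2.43, SE 0.54, adjusted p = 0.0444), and with -1.75 and an adjusted p of 0.246 without LSK polysomal 2. In a fit that corrects each library for GC content, an alternative added after the data were seen, Adgrg1 had -1.96 and did not pass (adjusted p = 0.0557). Cd34, a sialomucin of early progenitors, had 402, 470 and 265 CPM in MP and 1524 and 1789 CPM in LSK and did not pass (log2 change -2.13, adjusted p = 0.0674), although its levels did not overlap. In the fit corrected for GC content Cd34 passed, with -2.59 (adjusted p = 0.0413). Without LSK polysomal 1 or 2 the list had 11 and 9 genes lower, and without MP polysomal 1, 2 or 3 it had 0, 0 and 5.

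**Figure D3:**
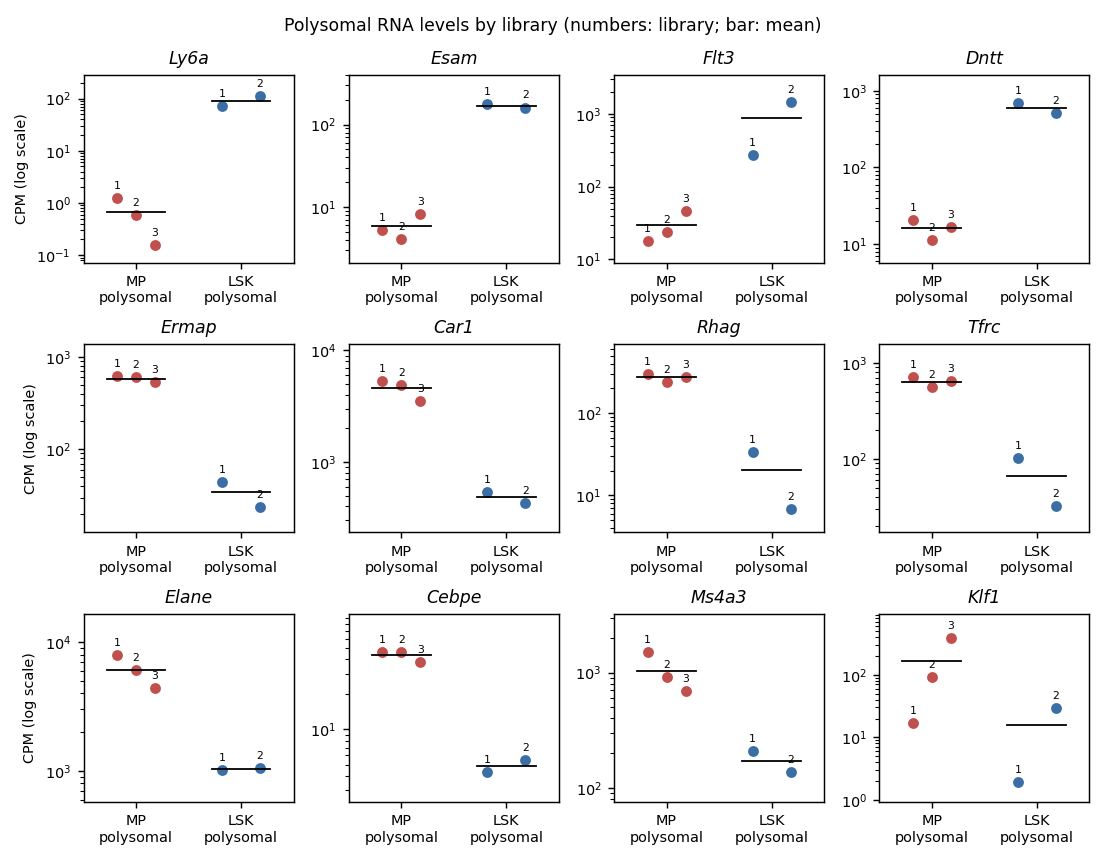
CPM in polysomal RNA (y axis, log scale) of 12 genes in the 3 MP and 2 LSK libraries, each point a library with its number and the bar the mean. The stem and lymphoid genes of the top row lie lower in every MP library, Ermap, Car1, Rhag, Tfrc, Elane, Cebpe and Ms4a3 lie higher in every MP library, and the Klf1 libraries overlap, with 16.8 CPM in MP polysomal 1 and 29.8 CPM in LSK polysomal 2.

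Among transcription factors of stem cells, 29 of 31 listed genes were tested, 4 were lower in MP, against 2.83% of all tested genes, and 0 higher, with a median log2 change of -1.75. The median was -0.98 without LSK polysomal 2. Hlf, a PAR bZIP factor, had 10.4, 9.58 and 7.59 CPM in MP and 179 and 127 CPM in LSK, without overlap (log2 change -4.05, SE 0.45, adjusted p = 0.00696). Mecom, which encodes the zinc finger factor Evi1, had 2.66, 2.02 and 2.01 CPM in MP and 82.0 and 27.8 CPM in LSK (log2 change -4.62, SE 0.64, adjusted p = 0.0112). The homeobox gene Meis1 had 73.8, 59.6 and 46.8 CPM in MP and 493 and 167 CPM in LSK (log2 change -2.46, SE 0.55, adjusted p = 0.0435). Both were highest in LSK polysomal 1, and without it their changes were -3.53 and -1.38. Hoxa10, a homeobox gene of the HoxA cluster, was instead highest in LSK polysomal 2, with 0.751, 1.25 and 1.43 CPM in MP and 9.20 and 40.1 CPM in LSK (log2 change -4.42, SE 0.76, adjusted p = 0.0204), and had a change of -2.99 without that library. In Mecom, Meis1 and Hoxa10 the spread was larger between the LSK libraries than among the MP libraries. Without LSK polysomal 1 or 2 the list had 3 genes lower each, and without MP polysomal 1, 2 or 3 it had 0, 0 and 1.

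Genes of lymphoid priming, those that multipotent cells begin to transcribe before they enter the lymphoid branch, were lower in MP for 10 of 29 tested members, against 2.83% of all tested genes, and higher for 0. Their median log2 change was -2.87, and -1.89 without LSK polysomal 1. Flt3, the receptor for the FLT3 ligand, at chr5:147330741-147400489 on the minus strand, had 18, 23.6 and 46.7 CPM in MP and 274 and 1474 CPM in LSK (log2 change -4.89, SE 0.76, adjusted p = 0.0150). Its 2 LSK levels were far apart, so the change was -5.50 when LSK polysomal 1 was left out and -3.21 when LSK polysomal 2 was, and the lower LSK level still lay above every MP level. Dntt, the terminal transferase that adds bases at immune receptor joints, had 20.5, 11.3 and 16.5 CPM in MP and 698 and 507 CPM in LSK (log2 change -5.23, SE 0.63, adjusted p = 0.00754). Gimap7, a GTPase of the immunity-associated family, had 0.444, 0.562 and 0.383 CPM in MP and 23.5 and 25.2 CPM in LSK (log2 change -5.71, SE 0.65, adjusted p = 0.00696). In both genes the libraries of a population lay close together and the populations lay far apart. Lax1, an adaptor of lymphocyte receptors, had 2.87, 1.42 and 1.31 CPM in MP and 62.9 and 72.0 CPM in LSK (log2 change -5.17, SE 0.65, adjusted p = 0.00777). Gimap5, Gimap6, Gimap7 and Gimap8, 4 neighbours of one multigene family that could share reads, were all lower in MP. The change of Gimap5 was -3.39, or -2.15 without LSK polysomal 1 and -4.02 without LSK polysomal 2. That of Gimap8 was -5.605, or -4.15 without LSK polysomal 1 and -6.285 without LSK polysomal 2. Ccr7, a chemokine receptor, had 0.307, 0.165 and 0.0956 CPM in MP and 5.75 and 4.69 CPM in LSK. Lsp1, an actin-binding protein of leukocytes, had 92.2, 42.9 and 30.8 CPM in MP and 332 and 477 CPM in LSK. Their log2 changes were -4.76 (adjusted p = 0.0144) and -2.87 (adjusted p = 0.0325), and that of Lsp1 was -3.46 without MP polysomal 1 and -2.45 in the fit corrected for GC content, where it did not pass (adjusted p = 0.0565). Of 28 tested lymphoid transcription factors, 2 were lower in MP, against 2.83% of all tested genes, and the list's median was -0.98. Gata3 had 0.683, 1.75 and 1.34 CPM in MP and 12.9 and 15.3 CPM in LSK (log2 change -3.48, adjusted p = 0.0162). Nfatc2, which calcium signals activate, had 1.23, 1.62 and 3.51 CPM in MP and 24.1 CPM in each LSK library (log2 change -3.50, adjusted p = 0.0275). The priming list had 8 and 9 genes lower without LSK polysomal 1 or 2, and 0, 0 and 2 without MP polysomal 1, 2 or 3.

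Interferon response genes were lower in MP for 18 of 59 tested members, against 2.83% of all tested genes, with 0 higher. Their median log2 change was -1.82, and -1.21 without LSK polysomal 1. Most of them encode proteins that detect or block viral RNA, or that regulate the response. Among the 2'-5' oligoadenylate synthetases, which make the activator of RNase L, Oas1g had 0.342, 0.264 and 0.255 CPM in MP and 4.45 and 8.85 CPM in LSK (log2 change -4.51, SE 0.62, adjusted p = 0.0107). Oas1a had 18, 13.6 and 8.86 CPM in MP and 54.6 and 103 CPM in LSK (log2 change -2.55, SE 0.57, adjusted p = 0.0435). Oas3 had 2.90, 4.20 and 2.36 CPM in MP and 18.3 and 38.5 CPM in LSK (log2 change -3.17, SE 0.65, adjusted p = 0.0326), and a change of -2.53 without LSK polysomal 2. These 3 genes lie in one cluster whose Oas1 copies are near-identical, so the counting could split their reads, and each showed no overlap between the populations. Isg15, a ubiquitin-like modifier, had 2.46, 1.95 and 1.12 CPM in MP and 12.9 and 14.9 CPM in LSK (log2 change -2.92, SE 0.67, adjusted p = 0.0470). Usp18, which removes Isg15 from proteins, had 7.11, 6.08 and 6.82 CPM in MP and 38 and 47.2 CPM in LSK (log2 change -2.67, SE 0.47, adjusted p = 0.0208). Ifit3, an RNA-binding interferon effector, had 0.376, 0.463 and 0.0956 CPM in MP and 3.98 and 3.49 CPM in LSK (log2 change -3.57, adjusted p = 0.0375). A pair of GTPase genes that interferon gamma induces in mouse cells was higher in LSK polysomal 1 than in LSK polysomal 2. The GTPase gene Tgtp1 had 2.70, 1.82 and 0.924 CPM in MP and 47.8 and 13.9 CPM in LSK (log2 change -4.08, SE 0.74, adjusted p = 0.0227), with -2.84 without LSK polysomal 1 and -4.71 when LSK polysomal 2 was left out. Iigp1, a related GTPase, had 1.95, 1.32 and 0.765 CPM in MP and 43.1 and 8.47 CPM in LSK (log2 change -4.26, SE 0.79, adjusted p = 0.0245). Iigp1 had a change of -2.56 without LSK polysomal 1 and of -4.99 when LSK polysomal 2 was left out. The interferon list had 7 and 8 genes lower without LSK polysomal 1 or 2, and 0 without MP polysomal 1, 2 or 3.

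The promoter windows of 3 of these genes, 250 bases before to 50 after the gene start in RefSeq (GRCm38.p6), are shown because they hold the element known to be bound by interferon-activated factors, searched as GAAA, NN and GAAA in a row on both strands and given in capitals. The element was in 6 of 10 windows of the called interferon genes and 52.4% of 42 windows of the tested ones, against 3.14% of 10717 windows of tested genes; matches overlap in Isg15 and Oas1a, and a match is a description of the letters and not of binding.
Isg15, chr4:156200769-156201068, minus strand: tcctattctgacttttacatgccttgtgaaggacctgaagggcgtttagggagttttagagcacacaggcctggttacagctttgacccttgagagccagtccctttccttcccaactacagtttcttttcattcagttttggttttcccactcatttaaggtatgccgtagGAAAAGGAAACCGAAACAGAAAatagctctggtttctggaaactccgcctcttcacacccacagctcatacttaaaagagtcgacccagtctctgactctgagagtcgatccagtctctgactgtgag
Oas1a, chr5:120907476-120907775, minus strand: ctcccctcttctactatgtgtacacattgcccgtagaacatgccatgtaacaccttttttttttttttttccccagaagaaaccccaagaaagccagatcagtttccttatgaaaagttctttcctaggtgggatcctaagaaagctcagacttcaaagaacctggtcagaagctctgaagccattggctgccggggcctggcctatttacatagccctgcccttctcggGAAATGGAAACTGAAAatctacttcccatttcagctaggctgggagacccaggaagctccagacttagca
Tgtp1, chr11:48992197-48992496, minus strand: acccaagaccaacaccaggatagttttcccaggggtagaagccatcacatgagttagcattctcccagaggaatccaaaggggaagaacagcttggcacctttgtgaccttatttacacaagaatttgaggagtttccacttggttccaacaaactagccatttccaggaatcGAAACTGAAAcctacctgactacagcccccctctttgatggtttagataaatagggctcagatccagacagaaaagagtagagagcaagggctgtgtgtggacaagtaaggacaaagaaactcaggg

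MHC class II genes, whose products present peptides to CD4 T cells, were lower in MP for 4 of 10 tested members, against 2.83% of all tested genes. Of the 10, 9 did not overlap, against 17.4% of all tested genes in that direction, and the median log2 change was -2.20. H2-Ob, a chain of the H2-O chaperone, had 23, 16.9 and 11.1 CPM in MP and 144 and 149 CPM in LSK (log2 change -3.11, SE 0.55, adjusted p = 0.0206). H2-DMa, a chain of the peptide exchanger, had 133, 112 and 76.7 CPM in MP and 402 and 567 CPM in LSK (log2 change -2.18, SE 0.43, adjusted p = 0.0300). H2-Aa, an alpha chain of the classical class II molecules, had 33.0, 31.1 and 19.6 CPM in MP and 150 and 110 CPM in LSK (log2 change -2.22, adjusted p = 0.0318). H2-Eb1, a beta chain, had 7.89, 11.8 and 10.8 CPM in MP and 36.1 and 91.9 CPM in LSK (log2 change -2.65, adjusted p = 0.0319), and a change of -1.82 without LSK polysomal 2. The invariant chain gene Cd74 did not overlap but LSK polysomal 2 lay close to MP, with 75.6, 78.5 and 51.2 CPM in MP and 254 and 83.8 CPM in LSK (log2 change -1.30, adjusted p = 0.227), and its change was -0.19 without LSK polysomal 1. Of 20 MHC class I and peptide loading genes, 0 were called, with a median of -1.22 that was -0.58 without LSK polysomal 2. Without LSK polysomal 1 that list had 1 gene higher and 1 lower. The class II list had 4 genes lower without LSK polysomal 1, and 0 without LSK polysomal 2 or any 1 MP library.

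Red cell membrane and antigen genes were the list with the most genes higher in MP polysomal RNA, 12 of 35 tested against 0.524% of all tested genes, with a median log2 change of 2.00. Its members encode the spectrin skeleton, the anchors that tie it to the membrane, and blood group proteins. Ermap, the Scianna blood group protein, at chr4:119175457-119190011 on the minus strand, had 616, 600 and 529 CPM in MP and 44.7 and 23.8 CPM in LSK. The MP libraries agreed closely, and the log2 change was 4.08 (SE 0.53, adjusted p = 0.00941). Ermap had a change of 4.72 without LSK polysomal 1. In the skeleton, beta-spectrin Sptb had 20.3, 45.2 and 104 CPM in MP and 1.23 and 1.33 CPM in LSK (log2 change 5.46, SE 0.95, adjusted p = 0.0205), and 4.68 without MP polysomal 3. Beta-adducin Add2 had 118, 223 and 237 CPM in MP and 8.07 and 14.1 CPM in LSK (log2 change 4.12, SE 0.64, adjusted p = 0.0150). Ankyrin Ank1, which links spectrin to the anion exchanger, had 53.2, 93.8 and 95.2 CPM in MP and 7.51 and 4.15 CPM in LSK (log2 change 3.79, SE 0.63, adjusted p = 0.0181). Ank1 had a change of 4.41 without LSK polysomal 1. These 3 skeleton genes were lowest among the MP libraries in MP polysomal 1, and none overlapped with LSK. Among the blood group genes, Rhag had 302, 240 and 278 CPM in MP and 33.4 and 6.89 CPM in LSK (log2 change 3.76, SE 0.74, adjusted p = 0.0298). Rhag had a change of 5.42 without LSK polysomal 1 and of 3.04 when LSK polysomal 2 was left out. Rhd, its partner in the Rh complex, had 272, 235 and 274 CPM in MP and 29.0 and 52.4 CPM in LSK (log2 change 2.68, SE 0.52, adjusted p = 0.0298). Kel, the Kell protein, had 73.5, 83.6 and 68.0 CPM in MP and 12.3 and 11.1 CPM in LSK (log2 change 2.68, adjusted p = 0.0258). The water channel gene Aqp1 had 713, 756 and 582 CPM in MP and 93.2 and 59.8 CPM in LSK (log2 change 3.16, adjusted p = 0.0290). One member went the other way: Bcam, the Lutheran protein, had 0.0683, 0.297 and 0.0638 CPM in MP and 4.92 and 22.8 CPM in LSK (log2 change -6.56, adjusted p = 0.0146), with -7.17 and -5.06 without LSK polysomal 1 and 2, and -7.63 without MP polysomal 2. In the fit corrected for GC content Bcam had -5.53 (adjusted p = 0.0208). The list had 5 genes higher and 1 lower without LSK polysomal 1, 2 and 1 without LSK polysomal 2, 0 and 0 without MP polysomal 1 or 2, and 1 and 0 without MP polysomal 3.

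Promoter windows of 3 blood group genes, again 250 bases before to 50 after the start, are shown because GATA1, the main erythroid transcription factor, binds a short element that was searched as AGATAA or TGATAA on both strands and is given in capitals. It was in 4 of 7 windows of the called red cell genes and 23.1% of 26 windows of the tested ones, in 21.0% of 62 windows of all called genes that were higher in MP, and in 10.9% of 10717 windows of tested genes. The windows with a match were chosen for the print, and the share is a description.
Ermap, chr4:119189946-119190245, minus strand: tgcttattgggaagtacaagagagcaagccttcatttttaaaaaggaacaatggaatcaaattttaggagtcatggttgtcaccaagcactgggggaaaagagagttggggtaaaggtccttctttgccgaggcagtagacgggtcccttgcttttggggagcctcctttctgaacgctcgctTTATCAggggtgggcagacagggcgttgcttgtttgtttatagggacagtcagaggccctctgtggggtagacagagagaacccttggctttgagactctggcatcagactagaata
Rhag, chr17:40810899-40811198, plus strand: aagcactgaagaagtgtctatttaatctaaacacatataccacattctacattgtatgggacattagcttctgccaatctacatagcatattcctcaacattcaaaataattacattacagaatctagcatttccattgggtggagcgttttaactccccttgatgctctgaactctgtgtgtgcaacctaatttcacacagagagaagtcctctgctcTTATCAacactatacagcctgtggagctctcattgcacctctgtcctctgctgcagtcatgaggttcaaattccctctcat
Rhd, chr4:134864286-134864585, plus strand: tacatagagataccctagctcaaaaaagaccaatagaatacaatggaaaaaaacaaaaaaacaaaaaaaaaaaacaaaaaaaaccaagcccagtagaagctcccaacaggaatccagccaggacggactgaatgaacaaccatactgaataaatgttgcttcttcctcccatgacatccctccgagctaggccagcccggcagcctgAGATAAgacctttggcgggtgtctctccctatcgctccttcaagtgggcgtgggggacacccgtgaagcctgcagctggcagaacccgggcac

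The iron and heme list had 2 of 26 tested genes higher, against 0.524% of all tested genes, and a median of 0.95. Tfrc, the transferrin receptor that brings iron into cells, had 711, 568 and 645 CPM in MP and 102 and 32.3 CPM in LSK (log2 change 3.26, SE 0.70, adjusted p = 0.0385). Tfrc had a change of 4.43 without LSK polysomal 1 and of 2.66 when LSK polysomal 2 was left out. Slc40a1, the iron exporter ferroportin, which is also a macrophage gene, had 252, 218 and 200 CPM in MP and 31.7 and 21.7 CPM in LSK (log2 change 3.06, SE 0.48, adjusted p = 0.0150). Alas1, the housekeeping form of the first heme synthesis enzyme, had 1199, 1268 and 1078 CPM in MP and 363 and 369 CPM in LSK, without overlap and without a call (log2 change 1.69, adjusted p = 0.109). Car1, carbonic anhydrase 1 at chr3:14766216-14808368 on the minus strand, had 5292, 4911 and 3521 CPM in MP and 543 and 426 CPM in LSK (log2 change 3.24, SE 0.47, adjusted p = 0.0120). It was the 1 call among 6 tested globin and carbonic anhydrase genes, against 3.35% called over all tested genes. The erythroid transcription factors had 0 of 20 called and a median of -0.04, or 0.62 without LSK polysomal 2 and -0.65 without MP polysomal 3. Gata1 had 360, 376 and 299 CPM in MP and 116 and 124 CPM in LSK, without overlap (log2 change 1.53, SE 0.40, adjusted p = 0.0750). Gfi1b, a repressor of the same lineage, had 240, 262 and 282 CPM in MP and 91.0 and 129 CPM in LSK (log2 change 1.25, adjusted p = 0.143). Klf1, an activator of globin and red cell membrane genes with a transcript GC content of 61.0%, had 16.8, 90.5 and 382 CPM in MP and 1.96 and 29.8 CPM in LSK, so its libraries overlapped (log2 change 3.36, SE 1.6, adjusted p = 0.315). Epor, the erythropoietin receptor with a GC content of 59.6%, had 27.6, 90.4 and 130 CPM in MP and 4.32 and 26.9 CPM in LSK (log2 change 2.40, adjusted p = 0.195). Leaving out LSK polysomal 2 gave changes of 6.38 for Klf1 and 4.26 for Epor, and leaving out LSK polysomal 1 gave 2.63 and 1.76. Klf1 had a change of 1.76 without MP polysomal 3. In the fit corrected for GC content Klf1 had a change of 4.23 (adjusted p = 0.0439), Epor of 3.26 (adjusted p = 0.0118) and Gata1 of 1.82 (adjusted p = 0.0426). Without LSK polysomal 2 the iron list had 0 calls, without LSK polysomal 1 it had 2, and without any 1 MP library it had 0.

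The neutrophil primary granule list had 3 of 23 tested members higher in MP, against 0.524% of all tested genes, and 0 lower. Promyelocytes fill this granule with proteases and peroxidase. Of the 3, Elane encodes a granule protease, while Ms4a3 and Ly6c2 encode a membrane protein and a surface antigen. In the list 14 of 23 members did not overlap with MP higher, against 15% of all tested genes, and the median was 1.45. Elane, neutrophil elastase at chr10:79886247-79888215 on the plus strand, had 7902, 6026 and 4393 CPM in MP and 1023 and 1059 CPM in LSK (log2 change 2.55, SE 0.43, adjusted p = 0.0182). Ms4a3, a membrane protein of granulocyte and monocyte progenitors, had 1517, 920 and 685 CPM in MP and 206 and 136 CPM in LSK (log2 change 2.60, SE 0.52, adjusted p = 0.0310). Ly6c2, a surface antigen of myeloid cells, had 1559, 840 and 788 CPM in MP and 171 and 112 CPM in LSK (log2 change 2.91, SE 0.51, adjusted p = 0.0206). In all 3 genes MP polysomal 1 was the highest library. Mpo, myeloperoxidase, had 34820, 31340 and 29530 CPM in MP and 6952 and 9813 CPM in LSK (log2 change 1.93, adjusted p = 0.0665). Prtn3, proteinase 3, had 1105, 1916 and 1465 CPM in MP and 220 and 478 CPM in LSK (log2 change 2.10, adjusted p = 0.0550). Neither passed, although neither overlapped, and the change of Prtn3 was 2.77 without LSK polysomal 2. Of 23 myeloid transcription factors 1 was higher and 1 lower, against 0.524% and 2.83% of all tested genes. The list's median of -0.07 was 0.86 without LSK polysomal 2 and -1.15 without MP polysomal 3. Cebpe, which drives the late granule programme, had 46.3, 46.3 and 38.1 CPM in MP and 4.32 and 5.44 CPM in LSK (log2 change 3.16, SE 0.56, adjusted p = 0.0211). In the fit corrected for GC content it was 3.65 with an adjusted p of 0.0740. Maf, a bZIP factor of macrophages and T cells, had 0.307, 0.165 and 0.0638 CPM in MP and 6.01 and 2.33 CPM in LSK (log2 change -4.52, adjusted p = 0.0206), with -3.59 without LSK polysomal 1 and -5.17 without MP polysomal 1. Cebpa, the factor that opens the granulocyte branch, had 6.18, 3.77 and 33.1 CPM in MP and 4.85 and 25.2 CPM in LSK. Spi1, which encodes PU.1, had 13.9, 41.9 and 232 CPM in MP and 7.57 and 505 CPM in LSK. Both are GC-rich transcripts (62.6% and 58.9%) whose levels differed more between libraries of 1 population than between the populations, and neither was called (adjusted p = 0.992 and 0.671). Without LSK polysomal 2 their changes were 1.57 and 3.67, against -0.07 and -1.42 with it. Of 21 tested late neutrophil genes 0 were called, but the list took 2.03% of the counts in MP polysomal 1, against 0.120% and 0.0871% in MP polysomal 2 and 3 and 0.360% and 0.186% in LSK. Ngp, a secondary granule protein, had 7153, 160 and 96.3 CPM in MP and 848 and 451 CPM in LSK. Its change was 1.93, or -2.37 without MP polysomal 1, where the list's median was -1.39 in place of 1.44. The part of these late genes in the primary granule results was not tested. Without MP polysomal 1 the changes were 2.32 for Elane, 2.21 for Ms4a3 and 2.51 for Ly6c2, and none of them was called. The granule list had 4 genes higher without LSK polysomal 1, and 0 without LSK polysomal 2 or any 1 MP library, and the transcription factor list had 0 calls without LSK polysomal 1 or any 1 MP library and 1, lower, without LSK polysomal 2.

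Cytokine receptors were called only lower, and adhesion molecules in both directions, with more of them lower. Lower calls also prevailed over all tested genes, with 2.83% lower and 0.524% higher. These shares stand beside the counts of every list in this paragraph. Of 44 tested cytokine receptor genes, 8 were lower in MP and 0 higher, with a median of -0.56, and besides Flt3 they included receptors of interleukins. Il1r1, the signalling receptor for interleukin 1, had 7.51, 9.81 and 12.8 CPM in MP and 47.3 and 51.8 CPM in LSK (log2 change -2.31, adjusted p = 0.0464). Il2rg, the common gamma chain, had 60.8, 49.7 and 32.8 CPM in MP and 243 and 171 CPM in LSK (log2 change -2.12, adjusted p = 0.0451). Il27ra, which binds interleukin 27, had 11.7, 21.5 and 13.5 CPM in MP and 68.5 and 124 CPM in LSK (log2 change -2.63, adjusted p = 0.0336). None of these 3 overlapped. Il12rb1, a chain of the interleukin 12 receptor, rested on 1 library, with 0.956, 1.88 and 3 CPM in MP and 5.45 and 79.2 CPM in LSK. Its change was -4.44 (adjusted p = 0.0446), or -1.48 (adjusted p = 0.455) without LSK polysomal 2, -5.20 without LSK polysomal 1 and -3.35 (adjusted p = 0.0269) in the fit corrected for GC content. Acvr1b, an activin receptor, had 2.87, 2.91 and 2.23 CPM in MP and 11.7 and 11.8 CPM in LSK (log2 change -2.14, adjusted p = 0.0435), and in the fit corrected for GC content it did not pass (-1.87, adjusted p = 0.0520). In the adhesion list, 1 of 29 genes was higher and 3 were lower. The collagen-binding integrin Itga1 had 8.06, 10.2 and 11.9 CPM in MP and 0.930 and 0.457 CPM in LSK (log2 change 3.85, adjusted p = 0.0204). Itga1 had a change of 4.58 without LSK polysomal 1. Itga9, another integrin alpha chain, had 0.444, 0.628 and 0.191 CPM in MP and 5.98 and 6.06 CPM in LSK (log2 change -3.83, adjusted p = 0.0204). Of 28 megakaryocyte and platelet genes, 2 were lower, Selp among them, and the median was -0.60, or 0.28 without LSK polysomal 1. Selp, the adhesion protein P-selectin, had 9.63, 7.50 and 11.2 CPM in MP and 109 and 61.1 CPM in LSK (log2 change -3.17, adjusted p = 0.0150). Selp had a change of -2.57 without LSK polysomal 1. Itga2b, the platelet integrin, overlapped, with 59.4, 168 and 364 CPM in MP and 99.7 and 657 CPM in LSK. Of 18 mast cell, basophil and eosinophil genes 1 was lower, the protease gene Cma1, and the median was 0.89. The receptor list had 4 and 3 genes lower without LSK polysomal 1 or 2 and 0, 0 and 1 without MP polysomal 1, 2 or 3, and the adhesion list had 0 calls without LSK polysomal 2 or any 1 MP library. The megakaryocyte list had 2 genes lower without LSK polysomal 1 or 2 and 0, 0 and 1 without MP polysomal 1, 2 or 3, and the mast cell list had 2 higher and 0 lower without LSK polysomal 1 and 0 without LSK polysomal 2 or any 1 MP library.

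Lists of lymphocyte, macrophage and stroma genes took small shares of the counts in both populations, and 3 of these 4 lists took a smaller share in MP. Over all tested genes 2.83% were called lower and 0.524% higher, the shares to set beside the calls of these lists. Of 21 tested B cell and plasma cell genes 8 were lower in MP, with a median of -2.69 that was -3.29 without MP polysomal 1, and the 22 listed genes took 0.0331%, 0.0185% and 0.0144% of the counts in MP and 0.0972% and 0.308% in LSK. Most of these counts were of Ighm, the mu heavy chain, with 8858, 5205 and 3865 in MP and 20333 and 59988 in LSK. The B cell marker Cd79a had 27, 14 and 10 counts in MP and 104 and 221 in LSK (log2 change -3.47, adjusted p = 0.0325). Another, Ms4a1, had 5, 1 and 7 counts in MP and 24 and 0 in LSK. Of the 21 tested members, 19 had a negative change and 2 a positive one. Igkc, the kappa constant region, had 2.29, 2.38 and 1.27 CPM in MP and 111 and 695 CPM in LSK (log2 change -7.67, adjusted p = 0.0162). Igkc had a change of -8.35 without LSK polysomal 1 and of -5.80 when LSK polysomal 2 was left out. Jchain, which joins secreted antibodies, had 0.410, 0.264 and 0.287 CPM in MP and 28.6 and 86.6 CPM in LSK (log2 change -7.47, adjusted p = 0.0341), and -6.46 without LSK polysomal 2. In the fit corrected for GC content Jchain had -8.22 (adjusted p = 0.0271). Ighg1, the IgG1 constant region, had 0 counts in MP and 8.04 and 176 CPM in LSK, most of it in LSK polysomal 2. Immunoglobulin segments are near-identical copies between which counting could split reads. Blnk, a linker of the B cell receptor, had 1.13, 1.92 and 0.988 CPM in MP and 8 and 9.34 CPM in LSK (log2 change -2.69, adjusted p = 0.0317). Of 19 tested T and NK cell genes 2 were lower, with a median of -1.57, or -0.89 without LSK polysomal 2 and -0.98 in the fit corrected for GC content, and the 27 listed took 0.00163%, 0.000905% and 0.00124% of the counts in MP and 0.00941% and 0.0133% in LSK. Lck, a kinase of the T cell receptor, had 5.33, 2.87 and 2.93 CPM in MP and 65.6 and 123 CPM in LSK (log2 change -4.67, adjusted p = 0.0101), and held most of the list's counts in LSK. Cd3e, a chain of the T cell receptor complex, had 1, 0 and 1 counts in MP and 1 and 0 in LSK, and Cd3d had 6, 0 and 2 counts in MP and 2 and 1 in LSK. Of 18 tested macrophage genes 4 were lower and 1, Slc40a1, was higher, and the median of -3.09 was -2.50 without LSK polysomal 1 and -2.03 when LSK polysomal 2 was left out. The complement gene C1qa had 1.16, 0.958 and 0.351 CPM in MP and 6.38 and 15.5 CPM in LSK (log2 change -3.73, adjusted p = 0.0429). C1qa had a change of -2.94 without LSK polysomal 2, and of -2.80 in the fit corrected for GC content, where it did not pass (adjusted p = 0.165). The macrophage list as a whole took 0.0869%, 0.0615% and 0.0561% of the counts in MP and 0.0324% and 0.0313% in LSK, the other way round, and its highest count in MP polysomal 1 was 13238, of Vcam1. Of 8 tested stroma genes 1 was lower, Bgn, with 0.512, 0.429 and 0.478 CPM in MP and 17.0 and 2.33 CPM in LSK (log2 change -4.34, adjusted p = 0.0229), or -2.17 without LSK polysomal 1 and -5.15 without LSK polysomal 2. The stroma list had a median of -2.88, or -2.40 with its 1 gene at 0 in a group set to its bound, -1.87 without LSK polysomal 1 and -3.69 without MP polysomal 1. It took 0.00649%, 0.00533% and 0.00480% of the counts in MP and 0.0239% and 0.0161% in LSK. Most of these counts were of Pdgfrb, a growth factor receptor, with 1717, 1553 and 1393 in MP and 5639 and 3947 in LSK, while Col1a1 had 0, 3 and 1 counts in MP and 1 and 14 in LSK. Of 19 stroma genes 7 were at 0 in all MP libraries, Pdgfra, Dcn and Adipoq among them, and 4 were at 0 in both LSK libraries, Cxcl12 and Lum among them. The summed B cell, T cell and stroma lists thus moved with the stem, lymphoid and interferon genes that were lower in MP. In LSK most of the counts of each of these lists were of 1 gene, Ighm, Lck or Pdgfrb. All genes with immunoglobulin chain names took 0.0298%, 0.0192% and 0.0147% of the counts in MP and 0.108% and 0.503% in LSK. Igha, a heavy chain gene outside the B cell list, had 0.991, 0.0661 and 0.606 CPM in MP and 50.9 and 1088 CPM in LSK. Whether mature cells were present, and their part in the stem, lymphoid and interferon results, was not tested. Without LSK polysomal 2 the B cell list had 2 genes lower, the macrophage list 0 in either direction and the T cell and stroma lists 2 and 1. Without LSK polysomal 1 they had 7 lower, 3 lower and 1 higher, 2 and 0, and without any 1 MP library all 4 lists had 0.

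**Figure D4:**
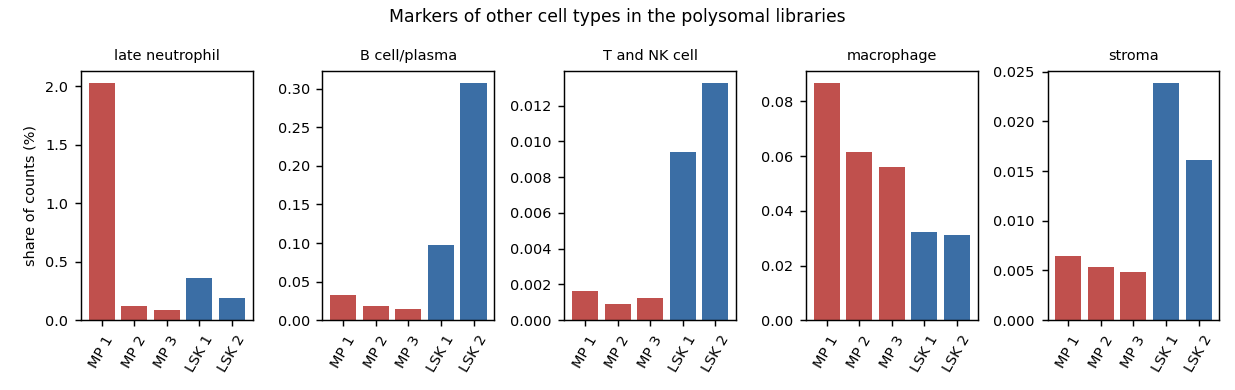
Share of all counts (y axis, percent, with a scale of its own for each list) taken by 5 marker lists in the 3 MP and 2 LSK polysomal libraries, each bar a library. Late neutrophil genes stand out in MP polysomal 1 (2.03%), B cell and plasma cell genes in LSK polysomal 2 (0.308%), and T and NK cell and stroma genes are higher in both LSK libraries.

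The genes of the translation machinery had no call in the fit of all libraries, which does not show that they were unchanged. None of 84 tested ribosomal protein genes, 48 initiation factor genes, 31 elongation factor and tRNA synthetase genes, 76 mitochondrial ribosome genes and 34 proteasome genes was called, and their medians were -0.03, 0.34, 0.26, -0.07 and 0.03. In total RNA the ribosomal protein genes had a median of 0.44 and the mitochondrial ribosome genes one of 0.68, over other libraries and with 0 calls. Lists outside the ribosome had higher medians in total RNA too, with 0.69 for proteasome, 0.79 for respiratory chain and 0.94 for glycolysis genes. Not all did, with 0.08 for mitosis genes and -0.79 for immediate early genes. Leaving out 1 polysomal library moved the ribosomal protein median between -0.24 and 0.35. The ribosomal protein median was -0.14 with libraries scaled by totals alone and 0.07 with the GC trend removed. The respiratory chain genes of the nucleus had 0 of 74 called, with a median of 0.06 that became -0.05 with library totals alone, as that of the proteasome genes became -0.07. Genes of DNA replication had 0 of 49 called and a median of 0.11, and genes of mitosis had 0 of 53 called and a median of 0.49, or 1.29 without LSK polysomal 1 and 0.063 when LSK polysomal 2 was left out. Incenp, a subunit of the chromosomal passenger complex, had 138, 255 and 125 CPM in MP and 53.8 and 21.0 CPM in LSK (log2 change 2.20, adjusted p = 0.146). Incenp had a change of 3.15 without LSK polysomal 1. Ncapg, a condensin subunit, had 107, 125 and 110 CPM in MP and 46.0 and 14.8 CPM in LSK (log2 change 1.9, adjusted p = 0.130). Ncapg had a change of 3.06 without LSK polysomal 1 and of 1.31 when LSK polysomal 2 was left out. Both were without overlap and without a call. Among 28 glycolysis genes 1 was called, near the share of 3.35% called over all tested genes. That gene, Aldoc, encodes aldolase C. Aldoc had 1.6, 1.62 and 1.31 CPM in MP and 40.4 and 49.3 CPM in LSK (log2 change -4.89, SE 0.51, adjusted p = 0.00696), with all libraries of a population close together. It was called without either LSK library and without MP polysomal 3, and not without MP polysomal 1 or 2. Cholesterol and fatty acid synthesis genes had 0 of 32 called, immediate early genes 0 of 22, cell cycle inhibitors and G1 cyclins 0 of 19 and nuclear long noncoding RNAs 0 of 15. With LSK polysomal 1 left out, 1 initiation factor gene, 1 cholesterol and fatty acid synthesis gene and 2 nuclear long noncoding RNAs were higher in MP, and the lists of this paragraph other than glycolysis had 0 calls with any other 1 polysomal library left out. Of the genes often used as references, Gapdh had 1234, 921 and 653 CPM in MP and 1001 and 1686 CPM in LSK. Actb had 2042, 2285 and 1880 CPM in MP and 1079 and 3144 CPM in LSK, and both overlapped. The nuclear RNA Malat1, which ribosomes are not known to read, had 242, 136 and 242 CPM in MP and 183 and 13.5 CPM in LSK (log2 change 1.07, adjusted p = 0.575), with 0.18 without LSK polysomal 2 and 4.05 (adjusted p = 0.0306) without LSK polysomal 1.

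Among the 15 largest increases in MP were, besides red cell genes, several enzymes and transporters. Acsl6, an acyl-CoA synthetase, had 18.8, 20.1 and 22.2 CPM in MP and 1.33 and 0.664 CPM in LSK (log2 change 4.34, SE 0.68, adjusted p = 0.0150). Acsl6 had a change of 5.05 without LSK polysomal 1. Acmsd, a decarboxylase of tryptophan breakdown, had 13.9, 14.3 and 9.47 CPM in MP and 1.16 and 0.332 CPM in LSK (log2 change 4.05, SE 0.72, adjusted p = 0.0211). Acmsd had a change of 5.33 without LSK polysomal 1 and of 3.43 when LSK polysomal 2 was left out. Abcg4, a sterol exporter, was highest in MP polysomal 3, with 12.7, 25.6 and 69.1 CPM in MP and 1.40 and 2.08 CPM in LSK (log2 change 4.37, adjusted p = 0.0401), and 3.46 without that library. Prom1, the pentaspan protein prominin-1, had 202, 99.3 and 97.3 CPM in MP and 13.1 and 3.36 CPM in LSK (log2 change 4.01, adjusted p = 0.0314). Prom1 had a change of 5.4 without LSK polysomal 1 and of 3.35 when LSK polysomal 2 was left out. Every MP library lay above both LSK libraries in all of these genes. Chosen after their values were seen, the metallothionein genes, whose products bind zinc and copper, were both higher in MP: Mt1 had 136, 180 and 127 CPM in MP and 15.3 and 22.4 CPM in LSK (log2 change 2.97, adjusted p = 0.0228). Mt2 had 51.8, 63.5 and 46.4 CPM in MP and 6.54 and 3.99 CPM in LSK (log2 change 3.35, adjusted p = 0.0298). Asns, asparagine synthetase, had 454, 433 and 384 CPM in MP and 108 and 118 CPM in LSK (log2 change 1.91, adjusted p = 0.0408). None of these 3 genes overlapped. Of the 15 largest decreases, 9 were immunoglobulin genes and 1 was Jchain. Another was Sgsm1, a small G protein regulator, with 0.102, 0.0661 and 0.191 CPM in MP and 16.8 and 53.2 CPM in LSK (log2 change -8.13, SE 1.30, adjusted p = 0.0160). Sgsm1 had a change of -7.07 without LSK polysomal 2. The basement membrane collagens Col4a1 and Col4a2, neighbours that share a promoter, were both lower in MP, again chosen after their values were seen. Col4a1 had 0.683, 1.29 and 1.72 CPM in MP and 39.9 and 123 CPM in LSK (log2 change -6.04, SE 0.70, adjusted p = 0.00742). Col4a1 had a change of -5.01 without LSK polysomal 2 and of -5.43 (adjusted p = 0.00466) in the fit corrected for GC content. The change of Col4a2 was -4.775 and leaned more on 1 library, with -2.63 without LSK polysomal 2 and -5.47 without LSK polysomal 1. Txnip, a thioredoxin-binding protein that limits glucose uptake, had 519, 503 and 480 CPM in MP and 2294 and 1804 CPM in LSK (log2 change -2.03, SE 0.39, adjusted p = 0.0273). Tmem176b, a membrane protein of dendritic cells, had 163, 128 and 89.4 CPM in MP and 945 and 839 CPM in LSK (log2 change -2.81, SE 0.42, adjusted p = 0.0142). These were abundant messages in both populations, and the libraries within each lay close together. Without LSK polysomal 2 the increases named here and Txnip did not pass, Sgsm1, Col4a1 and Tmem176b did. With LSK polysomal 1 left out, Abcg4, Mt1, Mt2, Asns and Txnip did not pass, and no gene passed without MP polysomal 1 or 2.

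The same comparison was made in total RNA, MP total over LSK total, from 2 libraries each and in the same model, to set the polysomal changes beside those of the lysate. It called 179 genes, 1.09% of those tested, with 45 (0.274%) higher and 134 (0.816%) lower in MP. The libraries of the fractions differ in number, so the difference in counts of calls is no test of a difference between fractions. The stem surface list had 13 of 34 genes lower and a median of -2.47 in polysomal RNA, against 9 and -2.56 in total RNA. The red cell membrane list had 12 genes higher and a median of 2.00 in polysomal RNA, against 8 and 2.02 in total RNA. Ermap had a change of 4.08 in polysomal and 4.14 in total RNA, and Car1 one of 3.24 in polysomal and 3.25 in total RNA. The interferon list had 18 genes lower and a median of -1.82 in polysomal RNA, against 3 and -2.01 in total RNA. The interaction of population and fraction, which tests whether the change in polysomal RNA differs from that in total RNA, called 0 genes by edgeR (smallest adjusted p = 0.877) and 1 by DESeq2, with 869 genes at an unadjusted p below 0.05 by edgeR. With no filter on low counts edgeR called 4. Among the 5 genes with the smallest p, Eya4, a phosphatase and transcriptional coactivator, had 1.02, 0.925 and 1.12 CPM in MP polysomal RNA and 0 counts in LSK polysomal RNA, at least 18.5-fold higher in MP against a floor of 3 counts over the group. Prpf39, a splicing factor, had 24.6, 19.1 and 38.1 CPM in MP and 11.4 and 4.94 CPM in LSK polysomal RNA. Its change was 1.74 in polysomal RNA, or 2.60 without LSK polysomal 1, and -2.54 in total RNA (adjusted p of the interaction = 0.877 by edgeR). Tfrc had a change of 3.26 in polysomal RNA and 0.79 in total RNA, with an interaction of 2.47 that did not pass (adjusted p = 0.877). Its polysomal change was 4.43 without LSK polysomal 1 and 2.66 when LSK polysomal 2 was left out. Aldoc had -4.89 in polysomal and -2.71 in total RNA (adjusted p of the interaction = 0.877).

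**Figure D5:**
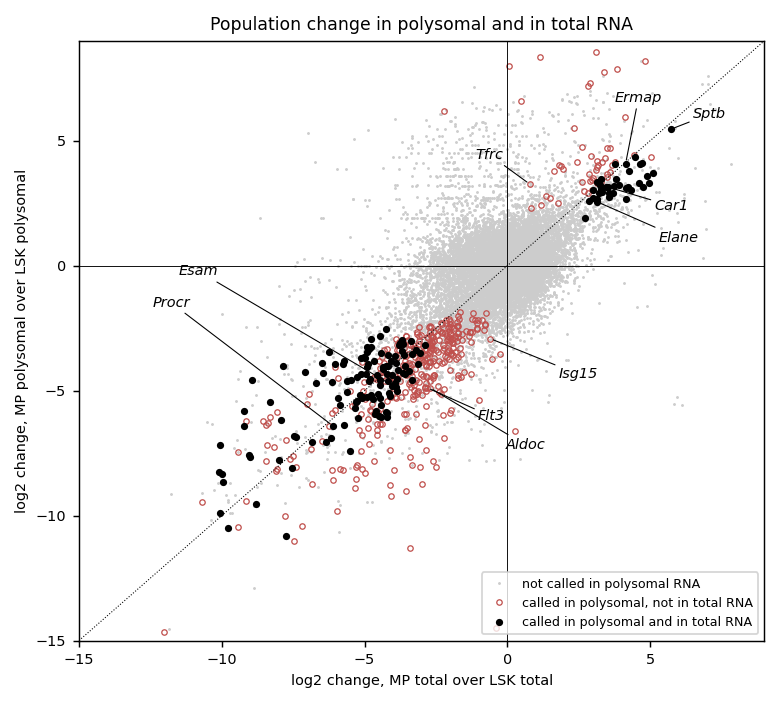
Log2 change of MP over LSK in polysomal RNA (y axis) against total RNA (x axis), each point a tested gene, with called genes marked and the dotted line at equal changes. Most genes called in polysomal RNA lie in the upper right and lower left, 397 of 551 were not called in total RNA, and Tfrc lies above the line, with 3.26 in polysomal and 0.79 in total RNA. Genes with 0 counts in a group have fitted changes that depend on the prior count.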

How the data were processed

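The file the authors deposited and that was used here holds raw counts, whole numbers by gene symbol, for polysomal and total RNA of MP and LSK cells. Per the labels' protocols, RNA was extracted with Trizol, and libraries were made by SMARTer amplification. Per the submitters' processing notes, bcl2fastq, STAR, featureCounts and DESeq2 were run with mm10 and GRCm38. Tool versions, gene models and strandedness were not given in the sources used here, and reads of antisense, overlapping or near-identical genes may be merged or split. Among the gene names 27 read as dates. A second deposited table, of normalized values, was not used.

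Samples were grouped by their titles. Analysis used R 4.3.3 and edgeR 4.0.16, with low counts removed by filterByExpr on the 4 groups (at least 10 counts, total of 15), TMM scaling and a quasi-likelihood fit of a mean per group over 9 libraries. The fit had 5 residual degrees of freedom and a prior of 4.58. Tests were two-sided with Benjamini-Hochberg adjustment over 16426 genes at 0.05. The standard error (SE) is the size of the log2 change divided by the root of the F statistic. Depth was similar in all libraries, and precision was set by their spread (median biological coefficient of variation 0.558). The procedure was tested on simulated counts. GC content and positions came from GENCODE M21 (GRCm38), matched by symbol, and promoter windows from RefSeq (GRCm38.p6).

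The comparison and the gene lists were chosen with earlier results of these data known. Genes were named by a rule: the 15 largest increases and decreases among genes that passed, had at least 10 CPM in the higher group, did not overlap and were no predicted models, for each list the 6 members (or fewer) of smallest p, the 5 smallest p of the interaction, and Esam, Flt3, Car1, Elane, Ly6a, Kit, Cd34, Procr, Actb, Gapdh and Malat1. Part of these are printed. Emcn, Fgd5, Adgrg1, Lsp1, Gimap5, Gimap8, Oas1a, Oas3, Isg15, Ifit3, Cd74, Rhag, Rhd, Kel, Aqp1, Epor, Ngp, Il2rg, Il1r1, Itga2b, Cebpa, Spi1, Mt1, Mt2, Asns, Col4a1, Col4a2, Txnip and Tmem176b lie outside it and were chosen after their values were seen. Alternatives changed the scaling, the filter, the tool (DESeq2 1.42.0, limma 3.58.1), the samples and the replicate block, and 1 added after the data were seen corrected each library for GC content.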

Additional observations from a re-analysis of the deposited data

How the results depend on the processing

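The 551 calls (86 higher and 465 lower in MP) kept their direction in every alternative in which they were tested. No called gene overlapped between the populations, so a kept direction was close to given and is no support. The number of calls did change. It was 1558 (379 and 1179) with no filter on low counts, 236 (47 and 189) with at least 10 CPM in 2 libraries, 1624 (529 and 1095) by DESeq2, 304 (38 and 266) from the 5 polysomal libraries alone, 0 (0 and 0) with both MP libraries numbered 1 left out and 197 (10 and 187) with both LSK libraries numbered 2 left out. Leaving out 1 of the 9 libraries gave 0 to 516 calls (0 to 145 higher and 0 to 380 lower), with 2442 and 2166 unadjusted p below 0.05 where edgeR called 0. Limma-voom called 148 higher and 513 lower, and removal of the GC trend called 139 higher and 536 lower, 521 of the 551 among them. With the replicate number as a block, 306 genes were lower and 112 higher, 307 of the 551 among them. The numbers are not stated to pair samples, and deviations of library 1 from 2 correlated at 0.457 between the polysomal groups and between 0.147 and 0.592 over the 4 pairs of groups. The interaction had 0 calls, 4 with no filter and 1 by DESeq2. The share of calls that were higher in MP was 15.6%, and 32.6% by DESeq2 and 26.8% with the block. The cause was not tested. Scaling by RLE size factors (540) or totals alone (592) stayed within 1.5 times. Genes with no call reversed their sign. Kit (0.13) was -0.039 with totals alone and -0.47 with both LSK libraries numbered 2 left out. Actb (-0.03) was 0.18 by limma-voom, 0.0091 and 0.94 without both MP libraries numbered 1 or both LSK libraries numbered 2, 0.027 with the block and 0.27 with the GC trend removed. Itga2b (-0.94), Cebpa (-0.07) and Spi1 (-1.42) were 0.99, 1.57 and 3.67 with both LSK libraries numbered 2 left out, and Cebpa was 0.32 with both MP libraries numbered 1 left out and 0.56 with the GC trend removed. Ngp (1.93) was -0.39 by limma-voom and -2.35 with both MP libraries numbered 1 left out. Leaving out 1 library moved Kit between -0.46 and 1.29, Actb between -0.49 and 0.94, Itga2b between -1.74 and 0.99, Cebpa between -1.60 and 1.57, Spi1 between -3.20 and 3.67 and Ngp between -2.37 and 2.51.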
